A study of Mus musculus with 8 samples.

Results

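The Hox genes encode homeodomain transcription factors that lie side by side in 4 clusters, Hoxa on mouse chromosome 6, Hoxb on chromosome 11, Hoxc on chromosome 15 and Hoxd on chromosome 2. They were measured here in mesenchymal cells of the mouse lung, the connective-tissue cells that include fibroblasts, pericytes and smooth muscle. A gene entered when the probe annotation gave its symbol as the only gene of a row, and its brightest row by the mean of the 8 arrays was used. This gave 36 Hox genes among the 22180 genes tested, 9 of cluster A, 10 of B, 9 of C and 8 of D. Hoxa11 and Hoxd4 had rows only together with another gene and were not used.

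The cells came from C57BL/6J mice, 11 weeks old and kept specific-pathogen-free, which had received either phosphate-buffered saline or bleomycin into the trachea. Bleomycin is a DNA-damaging drug that injures the lung and is used to model fibrosis. On day 10, cells negative for CD45, CD31 and EpCAM, the surface proteins of leukocytes, endothelium and epithelium, were sorted, and 100 ng of total RNA per sample was labelled for the arrays. There were 4 control arrays and 4 bleomycin arrays. The labels do not say whether the arrays of a group came from separate mice or whether mice were pooled, so p-values measure the spread between these arrays, which may be technical.

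In the embryo, genes at the 3′ end of each cluster are switched on early and far forward in the body and genes at the 5′ end later and further back, an order called colinearity. Genes with the same number in different clusters are paralogs, and the number gives the place along the cluster. The combination of Hox genes that a fibroblast expresses marks its position along the body, and adult fibroblasts in many organs keep such a code in culture. Hox proteins bind DNA together with TALE homeodomain cofactors of the Pbx and Meis families, and Polycomb and Trithorax complexes maintain the silent and the active state of the clusters. Hoxa5 is needed for normal lung and airway development, where it acts from the mesenchyme.

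Hoxa2 to Hoxa7 and Hoxb3 to Hoxb7 carried most of the signal, with little from cluster C or from the 5′ ends of any cluster. Levels are in log2 units of array intensity, and because probe sets differ in brightness they were not ranked against each other. Instead each gene was set against 1394 olfactory and vomeronasal receptor genes, which are largely silent outside sensory tissue. The 95th percentile of these receptor genes lay between 4.87 and 4.95 on the 8 arrays. By this measure 13 Hox genes were above the reference on all 8 arrays, namely Hoxa2 to Hoxa7, Hoxb3 to Hoxb7, Hoxd8 and Hoxd10. A further 8 were above it on some arrays, and 15 were above it on none. Split by place along the clusters, 3 of 7 anterior genes (paralog groups 1 to 3), 9 of 14 central genes (groups 4 to 8) and 1 of 15 posterior genes (groups 9 to 13) were above it on all 8 arrays.

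Cluster A had a sharp edge. Control levels (mean ± SD, n = 4) were 7.09 ± 0.077 for Hoxa2, 5.74 ± 0.24 for Hoxa3, 7.05 ± 0.12 for Hoxa4, 8.80 ± 0.17 for Hoxa5, 7.29 ± 0.25 for Hoxa6 and 6.93 ± 0.10 for Hoxa7. All of these were above the reference. The next genes toward the 5′ end were below it on all 8 arrays, with control levels of 4.32 ± 0.17 for Hoxa9, 3.23 ± 0.12 for Hoxa10 and 4.34 ± 0.16 for Hoxa13. Hoxa9 and Hoxa10, which pattern the limb and urogenital tract among other tissues, thus gave no signal beyond that of the receptor genes. The mean of Hoxa5 over the 8 arrays stood at percentile 88.7 of all tested genes.

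Cluster B had a like outline, with most of its central genes above the reference. Control levels were 4.71 ± 0.062 for Hoxb1, 4.95 ± 0.11 for Hoxb2, 6.24 ± 0.16 for Hoxb3, 7.11 ± 0.20 for Hoxb4, 7.86 ± 0.23 for Hoxb5, 5.52 ± 0.12 for Hoxb6, 5.52 ± 0.083 for Hoxb7, 4.64 ± 0.049 for Hoxb8, 4.45 ± 0.14 for Hoxb9 and 4.14 ± 0.20 for Hoxb13. Hoxb3 to Hoxb7 were above the reference on all 8 arrays. Hoxb2 was above it on 3 control arrays and 4 bleomycin arrays, and Hoxb8 on 0 control arrays and 4 bleomycin arrays. Hoxb1 and Hoxb9 each exceeded it on 1 bleomycin array only, and Hoxb13, a gene of the hindmost body, on none.

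Clusters C and D were mostly at or below the reference. In cluster C none of the 9 genes was above it on all 8 arrays. The row with the highest mean intensity in the cluster, which is no rank of transcript amounts, was that of Hoxc10, best known from hindlimb and lumbar motor neurons. Hoxc10 read 4.96, 4.98, 5.0 and 5.19 on control arrays 1 to 4 and 4.97, 4.78, 5.20 and 4.95 on bleomycin arrays 1 to 4, so that the groups overlapped. Its values lay between 0.11 below and 0.34 above the reference of the same array. Its difference, bleomycin minus control, was -0.058 ± 0.11 (SE, adjusted p = 0.766). In cluster D, Hoxd8 (5.24 ± 0.18 in control) and Hoxd10 were above the reference on all 8 arrays.

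Hoxd10, whose row had the highest mean intensity in cluster D, was the single posterior gene above the reference throughout. It read 5.62, 5.48, 5.47 and 5.46 on the control arrays and 5.23, 5.33, 5.14 and 5.57 on the bleomycin arrays. The groups overlapped through bleomycin array 4, and the difference was -0.19 ± 0.11 (adjusted p = 0.263). Hoxd10 and Hoxd11 overlap in the RefSeq annotation, and Hoxd11 itself was below the reference on all 8 arrays. In all, 12 of the 36 genes overlap another Hox gene or an antisense gene of their cluster, among them Hoxa3 with Hoxa4, Hoxa5 and Hoxa6, and Hoxb3 with Hoxb4. Which strand and exons a row reads is not given in the sources used here, so neighbours may share signal.

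A stricter bar kept the core of the pattern. Above the 99th percentile of the receptor genes on all 8 arrays were 8 Hox genes, namely Hoxa2, Hoxa4, Hoxa5, Hoxa6, Hoxa7, Hoxb3, Hoxb4 and Hoxb5. Hoxa3 and Hoxb7 passed that bar on 2 arrays each, and the other genes on none. The number above the 95th percentile on all 4 arrays was 14 in control and 15 in bleomycin, so the same broad outline was present in both groups.

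**Figure D1:**
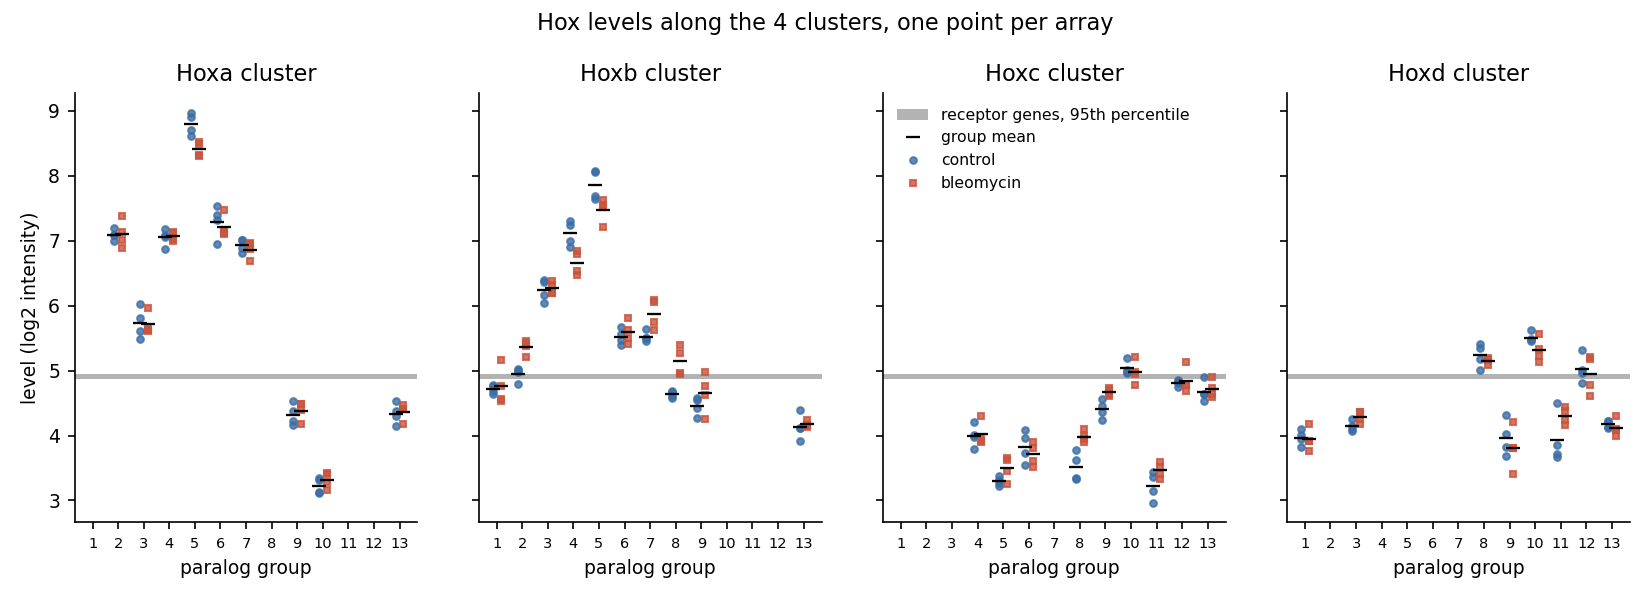
Level of each Hox gene (vertical axis, log2 intensity) by paralog group (horizontal axis) in the 4 clusters, with circles for control arrays, squares for bleomycin arrays, short black lines for group means and a grey band for the range of the receptor genes' 95th percentile over the 8 arrays. Hoxa2 to Hoxa7 and Hoxb3 to Hoxb7 sit above the band in both groups, while 6 of the 9 genes of cluster C sit below it on all 8 arrays.

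Few Hox genes differed between bleomycin and control. In limma's fit over all 22180 genes, with a Benjamini-Hochberg adjusted p under 0.05, 3 of 36 Hox genes were higher in bleomycin (8.33%) and 2 were lower (5.56%). Among all tested genes 9.12% were higher and 8.24% were lower, so the share of the family was not above the background in either direction. With each array centred on its median, the split over all genes was 1623 higher (7.32%) and 2314 lower (10.4%). An unadjusted p under 0.05 was found for 8 Hox genes, 22.2% of the family, against 30.5% of all genes. The groups did not overlap for 4 Hox genes higher in bleomycin and 3 lower, against 12.5% and 11% of all genes in these directions.

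The differences were small. Their median over the 36 genes was 0.03, beside 0.027 over all genes, and the median of their sizes was 0.083, beside 0.16. In 20 of the 36 genes the difference was within 0.1 in either direction, and the extremes were -0.46 (Hoxb4) and 0.51 (Hoxb8). Of the 31 genes that did not pass, the 95% intervals reached at most -0.69 (Hoxb5) and 0.75 (Hoxd11), so larger shifts than these lay outside the intervals. Hoxa4 shows how close the groups could be. It read 6.88, 7.05, 7.17 and 7.09 on the control arrays and 7.13, 7.02, 7.12 and 6.99 on the bleomycin arrays, a difference of 0.016 with a 95% interval from -0.19 to 0.22.

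**Figure D2:**
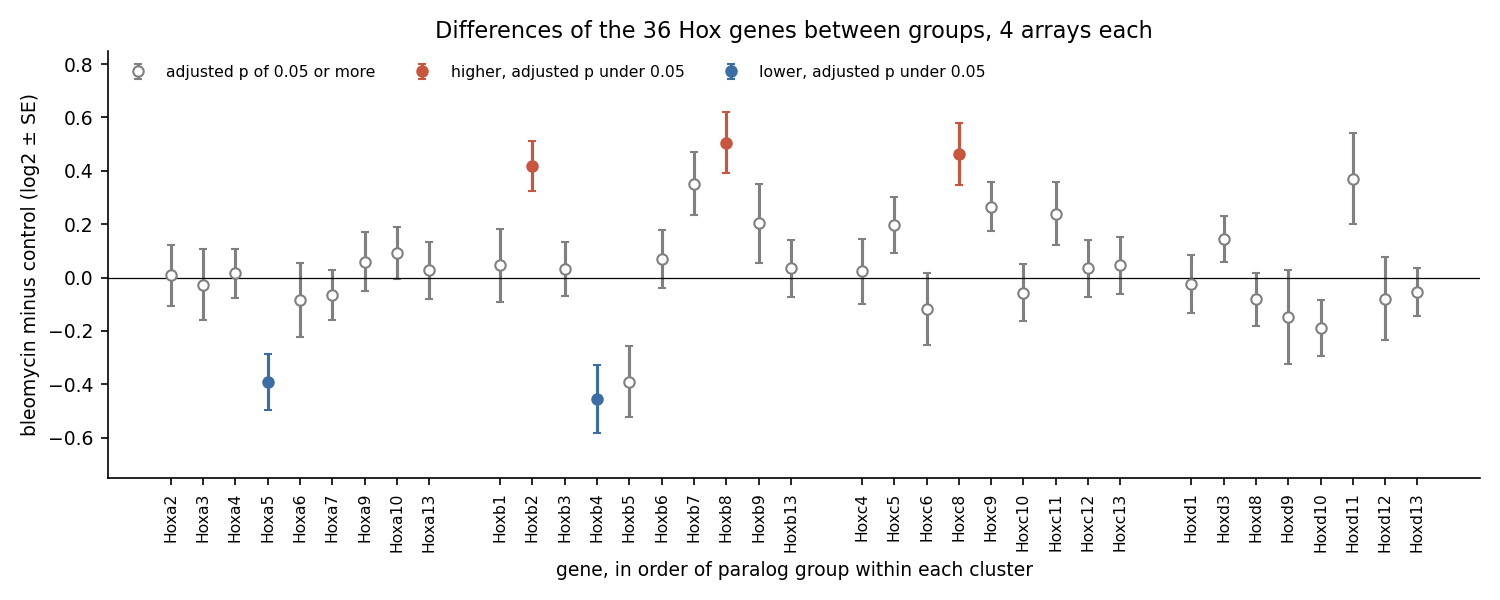
Difference between groups, bleomycin minus control, for the 36 Hox genes (points, log2 units) with the standard error of the fit (bars), ordered by paralog group within each cluster. Filled points passed an adjusted p of 0.05: Hoxb2, Hoxb8 and Hoxc8 were higher, Hoxa5 and Hoxb4 were lower, and the open points of the other 31 genes did not pass.

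Both genes that fell were among the 13 above the reference on all 8 arrays. Hoxa5 read 8.70, 8.61, 8.91 and 8.97 on the control arrays and 8.30, 8.51, 8.32 and 8.49 on the bleomycin arrays. Every bleomycin value was below every control value, and the control mean was 1.31-fold above the bleomycin mean. The difference was -0.39 ± 0.11 (SE, n = 4 a group, adjusted p = 0.0286). Hoxa5 was no longer called when control array 3 was left out (adjusted p = 0.0826), nor without control array 4 (0.0740), bleomycin array 1 (0.0771) or bleomycin array 3 (0.077).

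Hoxb4, a gene best known for promoting the growth of blood stem cells, fell by 0.46 ± 0.13 (adjusted p = 0.0329). It read 7.0, 6.90, 7.25 and 7.31 on the control arrays and 6.46, 6.53, 6.84 and 6.80 on the bleomycin arrays. The groups did not overlap, although the lowest control array and the highest bleomycin array were close. In both groups replicates 3 and 4 were higher than replicates 1 and 2, by 0.33 in control and 0.33 in bleomycin. Within replicates 1 and 2 the difference between groups was -0.45, and within replicates 3 and 4 it was -0.46. Its call was lost without control array 3 (adjusted p = 0.0913), control array 4 (0.0850), bleomycin array 1 (0.0898) or bleomycin array 2 (0.0803).

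Hoxb5, next to Hoxb4 in the cluster and a paralog of Hoxa5 with a known part in branching of the developing lung, read 7.69, 7.65, 8.05 and 8.07 on the control arrays and 7.21, 7.51, 7.55 and 7.63 on the bleomycin arrays. The groups did not overlap, but the difference of -0.39 ± 0.13 missed the threshold (adjusted p = 0.0709). Replicates 3 and 4 were again the higher pair, by 0.40 in control and 0.23 in bleomycin, and with that split as a block the adjusted p was 0.0165. Hoxb5 was the only Hox gene with a second row of its own, and that dimmer row went the other way. It read 5.90, 5.86, 5.88 and 5.96 on the control arrays and 6.21, 6.16, 6.13 and 6.12 on the bleomycin arrays, 0.25 ± 0.077 higher (adjusted p = 0.0473 over 23521 rows). The Hoxb5 result therefore depends on the row, and no direction is drawn for the gene.

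The genes that rose lay near or below the reference in control. Hoxb2, which is expressed in the hindbrain and its neural crest, read 5.02, 4.79, 5.01 and 4.99 on the control arrays and 5.43, 5.21, 5.45 and 5.38 on the bleomycin arrays. The groups did not overlap, and the difference was 0.42 ± 0.094 (adjusted p = 0.0119). Hoxb8, known from the mid-trunk and from blood progenitors, read 4.58, 4.61, 4.67 and 4.68 on the control arrays and 5.40, 4.96, 5.27 and 4.94 on the bleomycin arrays. It moved from below the reference to above it on every array, with bleomycin arrays 1 and 3 well above the other pair, and the difference was 0.51 ± 0.12 (adjusted p = 0.0128). Both genes were called in all 8 fits that left out 1 array.

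Hoxc8, a gene of the mid-trunk skeleton and motor neurons, read 3.33, 3.62, 3.77 and 3.34 on the control arrays and 3.99, 3.90, 4.09 and 3.94 on the bleomycin arrays. The difference was 0.46 ± 0.11 (adjusted p = 0.0194) and the groups did not overlap, but every value was at least 0.77 below the reference of its array, so no fold is given. Without control array 1, control array 4 or bleomycin array 3 its adjusted p was 0.0567, 0.0525 and 0.0568. Hoxb7, a neighbour of Hoxb8 that was above the reference, read 5.50, 5.64, 5.49 and 5.45 on the control arrays and 6.05, 5.74, 6.08 and 5.62 on the bleomycin arrays. The groups overlapped and the difference of 0.35 ± 0.12 missed the threshold (adjusted p = 0.0661). Hoxc9 did not overlap either, at 0.27 ± 0.092 (adjusted p = 0.0746).

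**Figure D3:**
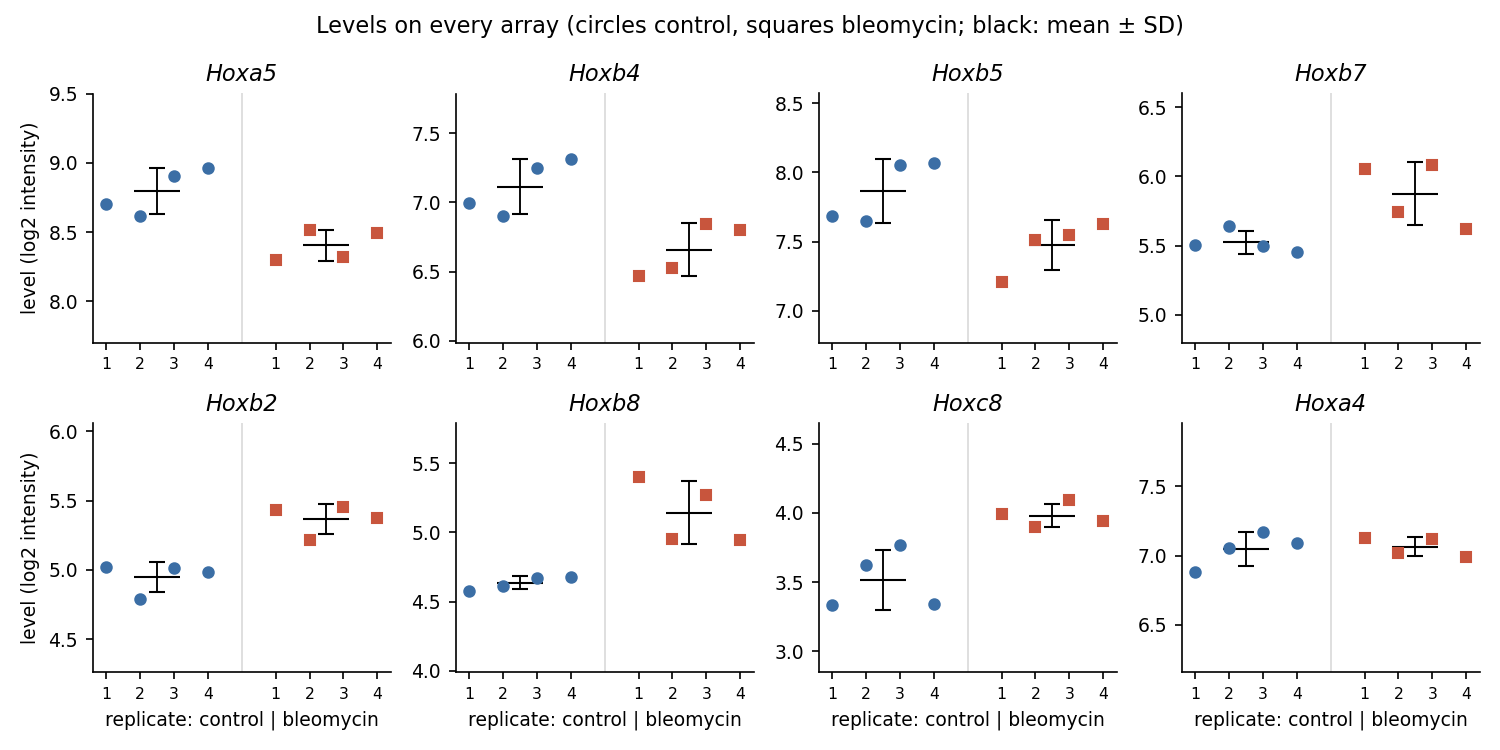
Level on each array (vertical axis, log2 intensity, every panel spanning the same range) for 8 Hox genes, with circles for control replicates 1 to 4, squares for bleomycin replicates 1 to 4, and black lines for the mean ± SD of a group. Hoxa5 and Hoxb4 are lower and Hoxb2, Hoxb8 and Hoxc8 higher on every bleomycin array, while Hoxb7 and Hoxa4 overlap between groups.

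By cluster, A had 0 higher and 1 lower of 9, B had 2 higher and 1 lower of 10, and C had 1 higher and 0 lower of 9. D had 0 in either direction of 8, with 0 at an unadjusted p under 0.05. None of the 15 posterior genes passed in either direction in limma's fit, and 1 of them, Hoxc9, had an unadjusted p under 0.05. Among all genes 9.12% were higher and 8.24% lower, so sets this small would hold few calls or none at that share. Above the reference on no array were 6 of the 9 genes of C, 5 of the 8 of D and 9 of the 15 posterior genes. The positions of the calls did not follow the order of a cluster, since Hoxb2 and Hoxb8 rose on either side of Hoxb4, which fell.

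Paralogs of clusters A and B could be compared in 8 pairs. The differences of Hoxa5 and of the brighter Hoxb5 row were -0.39 and -0.39, which were -0.0011 apart (exact permutation test of the difference of changes, two-sided, p = 0.971). The dimmer Hoxb5 row was at 0.25, so this likeness holds for the brighter row alone. Hoxa4 changed by 0.016 and Hoxb4 by -0.46, a difference of 0.47 at an exact p = 0.0286, the smallest value that 70 regroupings allow. The pairs of group 2 and group 7 differed by -0.41 and -0.42, both at an exact p = 0.0857. A lone pair at the smallest p becomes 0.229 after adjustment over the 8 pairs, so no single pair could have passed, and the adjusted values show neither likeness nor difference.

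The 250 bases before the annotated start site are shown for the called genes that have an entry in the RefSeq promoter table of build GRCm38.p6, so that both genes that fell and a gene that rose can be set side by side. Capitals mark matches on either strand to TGATNNAT, a core shared by Pbx-Hox sites, and AGGTCA, the half-site of retinoid and related nuclear receptors. They also mark matches on either strand to TATAAA, the sequence of the TATA box. Hoxa5 is at chr6:52204588-52204837 on the minus strand, Hoxb4 at chr11:96318017-96318266 on the plus strand and Hoxb8 at chr11:96281655-96281904 on the plus strand.
Hoxa5: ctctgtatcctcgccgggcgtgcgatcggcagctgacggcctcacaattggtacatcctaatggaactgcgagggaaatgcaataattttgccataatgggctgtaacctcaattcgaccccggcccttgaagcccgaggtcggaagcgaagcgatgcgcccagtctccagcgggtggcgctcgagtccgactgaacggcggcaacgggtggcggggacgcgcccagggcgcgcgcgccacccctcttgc
Hoxb4: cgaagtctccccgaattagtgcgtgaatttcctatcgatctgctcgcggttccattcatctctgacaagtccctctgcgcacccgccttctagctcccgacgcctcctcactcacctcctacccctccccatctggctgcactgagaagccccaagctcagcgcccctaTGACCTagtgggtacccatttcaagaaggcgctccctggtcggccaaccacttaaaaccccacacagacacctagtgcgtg
Hoxb8: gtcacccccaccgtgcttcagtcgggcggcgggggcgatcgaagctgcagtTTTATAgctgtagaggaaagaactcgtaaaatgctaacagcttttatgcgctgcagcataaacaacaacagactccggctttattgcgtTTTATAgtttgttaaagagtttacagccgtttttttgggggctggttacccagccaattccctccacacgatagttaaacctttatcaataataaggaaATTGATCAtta
Hoxa5 held no match, and Hoxb4 held AGGTCA at base 170. Hoxb8 held TGATNNAT at base 240 and TATAAA at bases 52 and 141. Bases are counted from 1 at the 5′ end, and these matches did not overlap. All of them lay on the strand opposite to the one printed. The TATAAA matches are therefore not read as TATA boxes of the Hoxb8 start site.

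Such matches were common. Of 32851 promoters of this length, 7.7% held TGATNNAT, 14% AGGTCA and 12.4% TATAAA, against 4, 5 and 3 of 22 promoters of 20 Hox genes. Most, but not all, of the Hox promoters were rich in CG dinucleotides, the sites of DNA methylation. The counts ran from 2 to 35 in 250 bases. Their median was 12.5, beside 6 over all promoters, and 18 of the 22 were above 6. Clusters B and C were represented by Hoxb1, Hoxb4, Hoxb8 and Hoxc4 alone. Hoxa5 held 28, Hoxb4 14 and Hoxb8 12.

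Non-coding genes inside the clusters gave little signal. Of 9 measured genes on this list 7 lie inside a Hox cluster. Of the 9 genes 1 rose and 0 fell, beside 9.12% and 8.24% of all genes, so the list did not stand out from the background. Mir10b, a microRNA gene beside Hoxd4, read 1.73, 1.64, 1.85 and 1.63 on the control arrays and 2.27, 2.21, 2.14 and 2.26 on the bleomycin arrays. The groups did not overlap and the difference was 0.51 ± 0.086 (adjusted p = 0.00273), but all 8 values were below the median of the receptor genes, which was 2.46 to 2.62, so no fold is given. Such a row may report the transcript of the locus rather than the mature microRNA. The mature sequences are shown because miR-10b shares its seed (bases 2 to 8, in capitals), the part that pairs with target messages, with miR-10a of cluster B.
mmu-miR-10b-5p: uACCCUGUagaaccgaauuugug
mmu-miR-10a-5p: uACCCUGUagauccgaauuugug
mmu-miR-196a-5p: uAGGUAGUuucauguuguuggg
The microRNAs miR-10a and miR-10b share the seed and differ by U12A, counted from 1 at the 5′ end of miR-10a, while miR-196a, which targets Hoxb8 messages, has another seed. Mir10a was not analysed here. Neither Mir196a gene passed, at 0.26 (adjusted p = 0.183) and 0.11 (adjusted p = 0.600).

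Among the long non-coding genes, Hoxd3os1 was at 4.93 ± 0.13 in control and 5.22 ± 0.078 in bleomycin (0.29, adjusted p = 0.0529), with no overlap between groups. Hoxaas3, which lies antisense to Hoxa5 and Hoxa6, was at 5.74 and 5.49 (-0.24, adjusted p = 0.199). Its values, from 5.22 to 5.92, were above the reference on every array. Hotair, a transcript of cluster C known from work on silencing of cluster D, was at 4.85 and 4.51 (-0.33, adjusted p = 0.130). None of these passed. There were 24 measured protein-coding genes outside the clusters but within 1 Mb of one. Of these 3 rose (12.5%) and 1 fell (4.17%), near the 9.12% and 8.24% of all genes, with a median of 0.028. Chn1, a Rac regulator 892858 bases from cluster D, rose by 1.24 ± 0.13 (adjusted p = 0.000191). Snx10, 564688 bases from cluster A, rose by 0.49 and Atp5g2, 250084 bases from cluster C, by 0.45. Lnpk, an endoplasmic reticulum protein 88767 bases from cluster D, fell by 0.41. Snx10 lost its call in 3 of the 8 fits that left out 1 array and Lnpk in 2, at adjusted p of up to 0.066 and 0.0589.

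The TALE cofactors barely moved as a list. The median difference of its 8 measured members was -0.034. Of these 1 rose (12.5%, near the 9.12% of all genes) while 0 fell (beside 8.24%). Meis3 rose by 0.34 ± 0.088 (adjusted p = 0.0240), from 6.06, 5.91, 5.97 and 6.19 on the control arrays to 6.34, 6.32, 6.41 and 6.41 on the bleomycin arrays, without overlap. Its call was lost without control array 1 (adjusted p = 0.0507), control array 2 (0.0672), control array 3 (0.0700), bleomycin array 3 (0.0626) or bleomycin array 4 (0.0509). The brighter members Meis1 and Meis2 were lower by differences that missed the threshold, -0.31 (adjusted p = 0.0552) and -0.32 (adjusted p = 0.0563), and Pbx3 was higher by 0.36 (adjusted p = 0.0660). Of the 8 members 7 were above the receptor reference on all 8 arrays, the exception being Pbx4, which was above it on 5.

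Over 3 lists of chromatin regulators of the clusters, 3 of 52 genes rose (5.77%) and 6 fell (11.5%), near the 9.12% and 8.24% of all genes. Of 14 genes of Polycomb repressive complex 2, which methylates histone H3 at silent Hox genes, 1 rose and 3 fell. The catalytic subunits moved in opposite directions: Ezh2 rose by 0.48 ± 0.089 (adjusted p = 0.00464) and Ezh1, which is typical of resting cells, fell by 0.76 ± 0.11 (adjusted p = 0.00114). Phf1 and Lcor fell by 0.70 and 0.42. Of 18 genes of Polycomb repressive complex 1, Yaf2 rose by 0.38 and Cbx7, a subunit that reads the methyl mark, fell by 0.96 ± 0.17 (adjusted p = 0.00322). Of 20 Trithorax and MLL genes, Dot1l rose by 0.43, while Kmt2a, the methyltransferase that maintains Hox expression, fell by 0.30 and Kmt2c by 0.55. In the 8 fits that left out 1 array, Phf1, Dot1l and Kmt2a lost their calls in 5 each and Yaf2 in 3, at adjusted p of up to 0.0995 (Kmt2a), while Ezh1, Ezh2, Lcor, Cbx7 and Kmt2c kept theirs in all 8.

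Genes of mitosis moved with these results, and Ezh2 is known to be more abundant in dividing cells. Of 11 measured mitosis genes 11 rose (100%, beside 9.12% of all genes). Their mean level ranged from 5.0 to 5.15 on the control arrays and from 6.71 to 7.68 on the bleomycin arrays. The part of the mitosis genes in the changes of Ezh2 and Ezh1 was not tested.

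Retinoic acid is the signal that switches on anterior and central Hox genes in the embryo. Of 17 measured genes of its uptake, synthesis, breakdown and receptors 4 rose (23.5%) and 3 fell (17.6%), beside 9.12% and 8.24% of all genes. Stra6, a retinol transporter, rose by 1.26 ± 0.18 (adjusted p = 0.00101). The degrading enzyme Cyp26b1 rose by 0.84 and the synthesis enzyme Aldh1a3 by 0.75. Aldh1a1, another synthesis enzyme, fell by 0.82 and the retinal reductase Dhrs3 by 0.73. In the 8 fits that left out 1 array, Cyp26b1 lost its call in 6, Aldh1a3 in 4 and Dhrs3 in 1, at adjusted p of up to 0.0847, 0.0847 and 0.0526, while Stra6 and Aldh1a1 kept theirs in all 8. Synthesis and removal genes appeared in both directions.

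Larger changes than any Hox gene's were found for other homeobox genes and for a signal upstream of the Hox genes. The list of Cdx, Evx and ParaHox relatives also holds Meox and Gbx homeobox genes, the secreted factor Gdf11 and the replication regulator Gmnn. Of its 15 measured members 4 rose (26.7%, beside 9.12% of all genes) and 0 fell, and the median was 0.13. The 4 were Meox1, Gdf11, Gbx2 and Gmnn, and no Cdx, Evx or ParaHox gene passed. Meox1, a homeobox gene of the embryonic somites, read 5.43, 5.45, 5.18 and 4.97 on the control arrays and 7.40, 6.87, 7.20 and 6.32 on the bleomycin arrays, a rise of 1.69 ± 0.21 (adjusted p = 0.000526). Gdf11, a secreted factor that sets the start of posterior Hox expression in the embryo, rose by 1.39 ± 0.13 (adjusted p = 0.000115). Gbx2, a gene of the midbrain-hindbrain boundary, rose by 0.93, and Gmnn, a replication inhibitor that also binds Hox proteins, by 0.44. Gmnn was below the reference on every control array, and Gbx2 on all but control array 4. Gdf11 was below it on control array 2 (4.70 beside 4.91) and little above it on the other control arrays. Gmnn lost its call in 5 of the 8 fits that left out 1 array (adjusted p of up to 0.0864), and Meox1, Gdf11 and Gbx2 in none. A link between Gdf11 and the posterior Hox genes was not tested, and 9 of those 15 genes were above the reference on no array.

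Other positional transcription factors and signals of lung mesenchyme were split. Of 19 measured members 15.8% passed in each direction, beside 9.12% and 8.24% of all genes. There were 3 that rose, Osr2 by 0.75, Gli3 by 0.46 and Barx1 by 0.35, and 3 that fell, Wnt2, a growth signal of distal lung mesenchyme, by 0.75, Tcf21, a transcription factor of alveolar fibroblasts, by 0.64 and Foxf1, a transcription factor of lung mesoderm, by 0.62. Tcf21 and Gli3 each lost the call in 6 of the 8 fits that left out 1 array (adjusted p of up to 0.123 and 0.0739), Barx1 in 5 (up to 0.0641) and Foxf1 in 4 (up to 0.0638), while Osr2 and Wnt2 kept it in all 8. Head and brain patterning genes such as Otx2, En1, Six3 and Emx1 had 0 higher and 0 lower calls in limma's fit among 12 measured members. In the same fit 0 of them had an unadjusted p under 0.05, beside 30.5% of all genes. Their median difference was 0.12, and 7 of the 12 were below the reference on all 8 arrays.

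**Figure D4:**
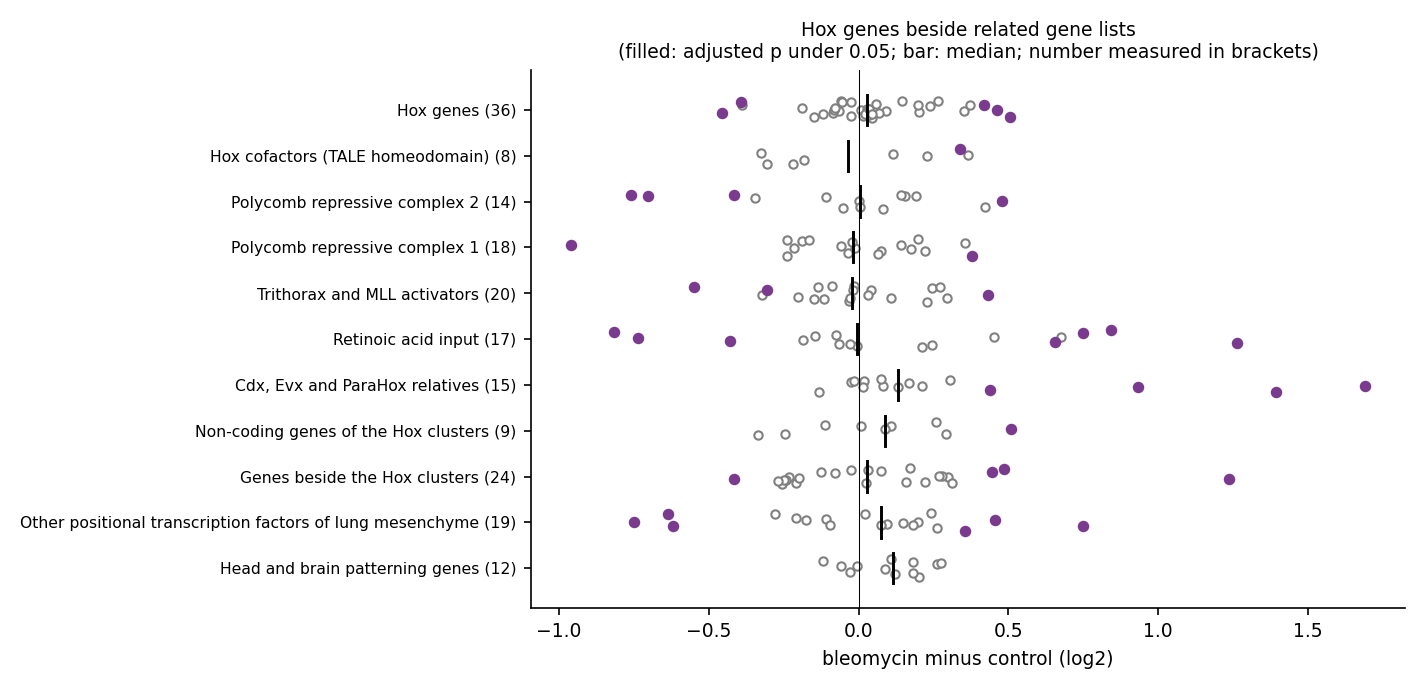
Difference between groups, bleomycin minus control (horizontal axis, log2 units), of each measured member of the Hox family and of 10 related lists, with filled points for an adjusted p under 0.05, a black bar for the median of a list and the number measured in brackets. Hox differences stay between -0.46 and 0.51, while single members of the retinoic acid list and of the Cdx, Evx and ParaHox list reach 1.26 and 1.69.

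Markers of cell types outside the gate were present and differed between groups, at levels as bright as those of mesenchymal genes for some, such as Sftpc of the alveolar epithelium (12.08 in control, 9.76 in bleomycin) and Cdh5 of the endothelium (10.69 and 9.66). The endothelial markers fell in 14 of 18 genes (77.8%, beside 8.24% of all genes) and rose in 0. Their mean list level was 7.96 to 9.02 on the control arrays and 7.20 to 7.62 on the bleomycin arrays. The alveolar epithelial markers fell in 14 of 19 (73.7%) and rose in 1 (5.26%), with 7.85 to 8.62 and 6.68 to 7.34. Both lists were highest on control arrays 1 and 2. Hoxa5, Hoxb4 and the brighter Hoxb5 row were higher on control arrays 3 and 4, by 0.28, 0.33 and 0.40. This was not particular to them. Hoxa3 and Hoxa6, which were not called, were higher there by 0.37 and 0.33, while Hoxa2 and Hoxb7 differed by -0.095 and -0.099. With control arrays 1 and 2 left out, Hoxa5, Hoxb4 and Hoxb5 were called lower and 0 Hox genes higher in limma's fit. In that fit 4 were higher at an unadjusted p under 0.05, and 4.47% of all genes were called lower and 5.43% higher. Leukocyte markers ranged from 5.97 to 6.25 and from 6.03 to 6.23, with 4 of 17 higher (23.5%) and 1 lower (5.88%). Mesothelial markers ranged from 6.14 to 6.50 and from 6.11 to 6.32. Of these 1 of 10 was higher and 1 lower (10% each), near the 9.12% and 8.24% of all genes.

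Markers of mesenchymal subtypes differed as well. Alveolar fibroblast markers fell in 10 of 13 (76.9%) and rose in 1 (10.84 to 11.08 in control, 9.95 to 10.68 in bleomycin). Adventitial fibroblast markers fell in 6 of 12 (50%) and rose in 1 (9.47 to 9.83 and 8.95 to 9.30). Among all genes 8.24% fell and 9.12% rose. In the joint list of pericyte and smooth muscle markers 8 of 15 rose (53.3%) and 2 fell (13.3%), with 7.23 to 7.53 and 7.84 to 8.29. This list did not move as one. Actg2, Acta2 and Postn rose most, by 2.55, 1.92 and 1.86, while Abcc9 and Higd1b fell by 0.65 and 0.61. Rgs5 and Kcnj8 were not called, so the count does not speak for pericytes alone. General mesenchymal markers rose in 8 of 12 (66.7%) and fell in 1 (10.94 to 11.17 and 11.53 to 11.78). As for the mesenchymal label, the defining genes were bright in both groups, with Pdgfra at 12.58 in control and 12.15 in bleomycin, Pdgfrb at 10.21 and 11.07, and Col1a1 at 11.94 and 12.77. In bulk samples fewer cells of a type and less RNA per cell cannot be told apart, and the part of these shifts in the Hox differences was not tested.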

How the data were processed

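RNA of sorted lung mesenchymal cells from 4 control and 4 bleomycin samples was hybridised to 1 array each. The sample titles give the group and the replicate number. The table deposited by the authors holds 1 value per row and array, and these deposited values were read as log2 intensities because of their range, with no scale stated in the file. How the authors corrected background, summarised probes and normalized arrays is not given in the sources used here. Arrays have no read depth, and their number limits the precision.

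Of 41345 rows, 23521 named 1 gene in the probe annotation, 1814 several and 16010 none. A Hox gene was named together with another gene on 7 rows, which were not used. Each of 22180 genes was represented by its brightest row. The comparison of bleomycin with control used limma 3.58.1 (lmFit, eBayes, two-sided tests) under R 4.3.3. P-values were adjusted by Benjamini-Hochberg over all 22180 genes, the threshold was 0.05, and the test was checked on simulated data. By Entrez identifier, all 36 Hox genes were found in RefSeq's table for GRCm38.p6. Promoter and microRNA sequences are from RefSeq, and figures were drawn with matplotlib 3.10.9 in Python 3.11.15.

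Every measured Hox gene is accounted for, and values on every array are given for those past the threshold and for the brightest of each cluster. Hoxa4, Hoxb5, Hoxb7, Mir10b, Meis3 and Meox1 were shown in the same way after their values were seen, and list members that did not pass were named after their values were seen. From each related list the passing members are named where 5 or fewer passed, and otherwise those with the largest change. The exception is that all 6 of the positional factors of lung mesenchyme are named. The cell type and mitosis lists do not follow this rule, since their counts are given with few or no members named. Sftpc, Cdh5 and the named pericyte and smooth muscle markers were chosen after their values were seen. The genes and lists were chosen with earlier results of these data known. The alternatives were another normalization, block, filter, row, weighting or threshold, and leaving out arrays.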

Additional observations from a re-analysis of the deposited data

Results flagged for a closer look

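Within a group of 4 arrays, a value was marked when its gap to the nearest array divided by the group's range exceeded Dixon's 95% critical value. Among 78 genes and 156 groups, 8 values were marked, and chance alone marks about 1 in 20 groups. Of the 8 marked values, 4 were high values on bleomycin replicate 2: Hoxa3 at 5.96 (nearest array 5.64), Hoxa6 at 7.47 (7.15), Hoxc4 at 4.30 (3.96) and Meis2 at 8.82 (8.50). Hoxa3 and Hoxa6 overlap in the annotation and are not independent readings. Hoxb2, which rose, was low on control replicate 2 at 4.79 (4.99). Hoxd10 was high on control replicate 1 at 5.62 (5.48), Gbx2 high on control replicate 4 at 5.14 (4.73), and Lnpk low on bleomycin replicate 3 at 7.0 (7.31).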

How the results depend on the processing

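Against 3 Hox genes higher and 2 lower in limma's fit, 1 was higher (Hoxd11) and 0 lower with replicates 1 and 2 alone, and 0 and 0 with replicates 3 and 4 alone, where an unadjusted p under 0.05 was found for 5 and 1, and for 4 and 4. Without controls 1 and 2 the counts were 0 and 3 (unadjusted 4 and 3). Without the dimmest 50% of genes, 1 of 11 Hox genes was higher (Hoxb7) and 3 were lower (Hoxa5, Hoxb4 and Hoxb5). At a threshold of 0.01 the counts were 0 and 0 (unadjusted p under 0.05 in 5 and 3). Over all genes, 3.78% were higher and 3.76% lower with replicates 1 and 2 alone. The shares were 2.27% and 0.992% with replicates 3 and 4 alone, and 5.43% and 4.47% without controls 1 and 2. They were 18.4% and 18.8% without the dimmest 50%, and 4.86% and 3.96% at a threshold of 0.01. Leaving out each array gave 2 to 4 higher and 0 to 2 lower, beside 6.75% to 8.96% and 5.89% to 8.49% of all genes. Without control replicate 4, Hoxd11 was called at 0.56. Above the 99th percentile of the receptor genes on all 4 arrays were 8 Hox genes in control and 8 in bleomycin.

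No called Hox difference changed sign under the alternatives, where 72 values kept the call and 29 lost it. For genes not called, 13 of 616 alternative values passed and 64 had the other sign. For the called genes of other lists and the sorting gate, 560 of 710 values kept the call. Hoxb5 passed in 7 alternatives and had -0.069 as the mean of its rows. With the replicate number as a block 3 Hox genes were higher and 3 lower, Hoxb5 being added (adjusted p = 0.0360), and 1937 and 1838 of all genes. Same-numbered arrays correlated by 0.129, 0.0631, 0.114 and 0.0647 in their deviations from the group means. Controls 2 and 4 correlated best with bleomycin arrays of another number, so the numbers were not taken as pairs. Controls 1 and 2 did correlate positively with bleomycin arrays 1 and 2 and negatively with 3 and 4, and controls 3 and 4 did the reverse. With that split as a block 3 Hox genes were higher and 3 lower, Hoxb5 again being added, beside 10.3% and 9.77% of all genes.

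Signal over background limits the dim genes. Hoxb8, Hoxc8, Gmnn and Mir10b lay at or below the receptor genes in control, as did Gbx2 except on control array 4. Hoxb2 and Gdf11 lay below the reference on control array 2 and little above it on the other control arrays. A difference there cannot be read as an amount of transcript.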
